A study of Homo sapiens with 20 samples.

Results

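Metallothioneins and the transporters that move zinc in and out of the cytosol were followed through all 9 groups of a bacterial exposure study in Caco-2 cells, a line from a human colon tumour whose confluent layers come to resemble enterocytes of the small intestine. Members were all genes whose symbol in the array's annotation is MT1 followed by 1 letter, MT2A, MTF1, or SLC30A or SLC39A followed by a number. They came to 32 genes of 19775 with a probe set of their own, namely 7 metallothioneins (MT1E, MT1F, MT1G, MT1H, MT1M, MT1X and MT2A), the transcription factor MTF1, 10 SLC30A genes (1 to 10) and 14 SLC39A genes (1 to 14). MT1A, MT1B and the pseudogene MT1L fit the same pattern in the RefSeq gene table and were not analysed here, because no probe set carries their symbol alone.

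Expression was measured on 20 Affymetrix HG-U133 Plus 2.0 arrays as log2 probe-set signals. All cells were Caco-2 at passages 47 to 51 that had differentiated on culture inserts for 5 days, and the bacteria or supernatants were given on the apical side without antibiotics. The probiotic set has 14 arrays labelled from 5 µg of RNA, with 2 arrays in each of 7 groups: medium alone for 8 h, co-culture with live L. acidophilus NCFM, B. lactis 420 or L. salivarius Ls-33 (8 h, with 20 to 100 bacteria for each Caco-2 cell), and 10% cell-free supernatant of each of these strains for 24 h. The E. coli set has 6 arrays labelled from 1 µg of RNA, with 3 arrays of medium alone for 24 h and 3 of 5% cell-free supernatant of E. coli O157:H7, an enterohaemorrhagic strain, for 24 h. The broth was MRS for the probiotic strains and LB for E. coli, each with 1% added glucose, and no group with uninoculated broth was analysed here. Each treatment was compared with the medium of its own set, so a probiotic supernatant at 24 h was set against medium at 8 h, and time and supernatant cannot be told apart there. The duplicates of the probiotic set are described by the series as duplicate analyses, so the spread that p-values rest on there is that between these arrays and may be technical.

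Metallothioneins are small, cysteine-rich proteins that bind zinc and copper and buffer them in the cytosol. MTF1 is a transcription factor that binds DNA when zinc in the cell rises. Its sites, the metal response elements, lie in several copies in metallothionein promoters and also upstream of SLC30A1, the zinc exporter of the plasma membrane. Most SLC30A proteins (ZnT) move zinc out of the cytosol, to the outside or into organelles, and SLC39A proteins (ZIP) move it into the cytosol. SLC39A4 takes up dietary zinc at the apical face of enterocytes and is the gene mutated in acrodermatitis enteropathica, an inherited zinc deficiency.

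The promoters of 3 metallothioneins that moved and of SLC30A1 are shown. They were chosen because these known targets of MTF1 did not move as 1 group. SLC30A1 was lower with live probiotic bacteria while MT2A and MT1H were higher. By the probe set that stands for each gene, all 4 were lower with E. coli supernatant, although another SLC30A1 probe set was not called there. The 250 bases before the RefSeq start site (build GRCh38.p14) are printed 5′ to 3′ on the gene's strand, with matches to the metal response element core, TGCACNC or TGCGCNC on either strand, in capitals. MT2A was read at chr16:56608334-56608583 on the plus strand, MT1H at chr16:56669564-56669813 on the plus strand, MT1X at chr16:56682220-56682469 on the plus strand and SLC30A1 at chr1:211579162-211579411 on the minus strand.
MT2A: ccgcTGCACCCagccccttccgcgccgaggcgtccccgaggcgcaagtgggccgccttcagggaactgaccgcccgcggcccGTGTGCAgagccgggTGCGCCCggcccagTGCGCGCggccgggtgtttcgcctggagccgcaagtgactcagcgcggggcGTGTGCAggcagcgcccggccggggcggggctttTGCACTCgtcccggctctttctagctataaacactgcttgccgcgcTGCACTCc
MT1H: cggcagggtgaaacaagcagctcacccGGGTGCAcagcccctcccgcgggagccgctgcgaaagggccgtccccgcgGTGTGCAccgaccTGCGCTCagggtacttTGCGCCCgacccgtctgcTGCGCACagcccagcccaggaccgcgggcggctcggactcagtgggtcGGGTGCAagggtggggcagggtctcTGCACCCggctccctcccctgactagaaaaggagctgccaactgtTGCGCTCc
MT1X: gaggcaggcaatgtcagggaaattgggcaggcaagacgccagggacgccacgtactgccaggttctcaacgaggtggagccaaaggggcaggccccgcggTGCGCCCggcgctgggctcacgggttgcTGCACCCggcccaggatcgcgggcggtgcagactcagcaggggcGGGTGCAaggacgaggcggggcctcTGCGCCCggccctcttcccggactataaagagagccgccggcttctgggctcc
SLC30A1: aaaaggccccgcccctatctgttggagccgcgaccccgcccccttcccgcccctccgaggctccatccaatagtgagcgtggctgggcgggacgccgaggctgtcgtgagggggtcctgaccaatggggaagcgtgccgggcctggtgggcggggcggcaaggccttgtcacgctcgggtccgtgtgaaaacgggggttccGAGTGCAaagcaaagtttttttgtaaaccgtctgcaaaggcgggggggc
In windows of 300 bases, which add 50 transcribed bases, MT2A and MT1H had 8 matches each, MT1X 4, SLC30A2 3 and SLC30A1 2. Of 35116 RefSeq windows of this length, 29.6% held at least 1 match, 8.60% at least 2, 2.30% at least 3, 0.601% at least 4 and 0.0199% at least 8, which is 7 windows. RefSeq windows were matched for 25 of the 32 members, 34 windows in all, and 16 of these held at least 1 match, with no matches overlapping each other. MTF1's own window held 0. No window was matched for MT1E, MT1F, MT1G, MT1M, SLC30A8, SLC39A4 and SLC39A14. A match is a stretch of letters and says nothing about binding. In RefSeq gene order, the 7 metallothioneins of this array lie together on chromosome 16, from MT2A through MT1E, MT1M, MT1F, MT1G and MT1H to MT1X, with other metallothionein genes and pseudogenes between them.

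**Figure D1:**
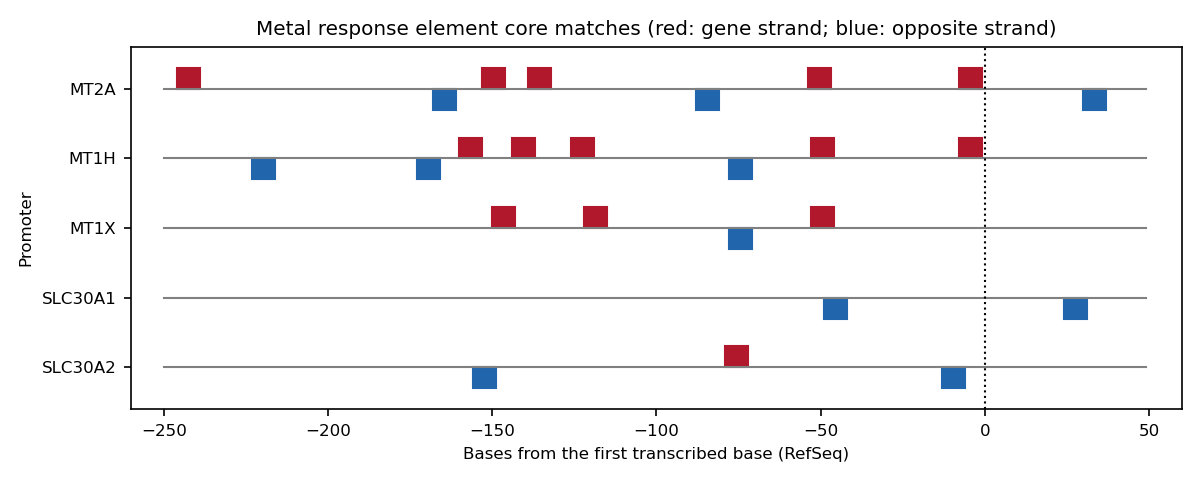
Position of each match to the metal response element core (horizontal axis, bases from the RefSeq start site; 1 line per promoter) on the gene's strand (red) and on the opposite strand (blue). MT2A and MT1H have 8 matches each, MT1X 4, SLC30A2 3 and SLC30A1 2, the latter all on the opposite strand.

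The median log2 signal of an array ranged from 2.66 to 2.72. A gene was tested where its mean over the arrays of the fit reached the 40th percentile of named genes (2.74 in the probiotic set, 2.78 in the E. coli set), and called at a limma adjusted p under 0.05 over the 11865 genes tested. Of the members, 26 were tested in the probiotic set and 27 in the E. coli set. SLC30A8, SLC30A10, SLC39A12, MT1M and the probe set that stands for MT1G were under this floor in both sets, and SLC39A2 in the probiotic set only. All 14 enterocyte-like marker genes with a probe set were over the floor, with LGALS4 the lowest at 2.91 to 4.55, whereas PTPRC and CD3E (leukocytes), CDH5 and VWF (endothelium), COL1A2 and DCN (fibroblasts) and MUC2, DEFA5 and DEFA6 (goblet and Paneth cells) were under it. The other 9 markers of these types, COL1A1, COL3A1, LUM, PDGFRA, CD14, LYZ, ITGAM, PECAM1 and SPINK4, were over it. For beta-actin, the 3′ minus the 5′ control signal, a sign of RNA quality, was 0.80 to 0.88 with 8 h medium, 1.08 to 1.54 in the co-cultures and 1.02 to 1.11 in the probiotic supernatants, and 1.90 to 2.17 with 24 h medium against 2.12 to 2.22 with E. coli supernatant.

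All tested metallothioneins were lower with E. coli supernatant, by 3.65-fold to 6.82-fold. MT2A, the most widely expressed metallothionein, read 11.23, 11.27 and 11.37 (log2) in the 24 h medium arrays and 9.56, 9.36 and 9.34 with supernatant, a fall of 3.65-fold (log2 change -1.87, SE 0.073, adjusted p = 1.60e-09). MT1H read 10.31, 9.94 and 10.35 in medium and 7.62, 7.09 and 7.59 with supernatant, 6.82-fold lower (-2.77, SE 0.15, adjusted p = 1.71e-08). MT1F went from 10.43, 10.16 and 10.52 to 7.74, 7.50 and 7.61, 6.73-fold lower (-2.75, SE 0.10, adjusted p = 1.21e-09). In each of these genes the groups were more than 1 log2 unit apart with no overlap. MT1X was 10.24, 10.11 and 10.18 against 8.11, 7.62 and 7.86 (-2.31, SE 0.11, adjusted p = 8.27e-09), and MT1E 8.95, 9.18 and 9.36 against 6.64, 6.67 and 6.72 (-2.49, SE 0.11, adjusted p = 5.53e-09). All 5 tested metallothioneins fell, with a median log2 change of -2.49, where the median over all genes tested was 0.048. In this comparison 36.3% of all genes were called higher and 27.8% lower. In RNA from a whole culture, fewer cells of a type and less RNA per cell cannot be told apart.

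MTF1, the zinc-sensing factor of the metallothionein genes, moved the other way. Its probe set 227150_at read 5.44, 5.35 and 5.28 in 24 h medium and 6.40, 6.72 and 6.09 with E. coli supernatant, a rise of 2.07-fold (log2 change 1.05, SE 0.17, adjusted p = 1.47e-04). All 3 supernatant arrays were above all 3 medium arrays. Both other MTF1 probe sets were called higher as well when every probe set was tested on its own, 205322_s_at by 1.33 and 205323_s_at by 0.54 on the log2 scale. In the probiotic set MTF1 was not called in any of 6 comparisons: it read 4.89 and 5.01 in 8 h medium, 4.77 to 5.16 over the 6 co-culture arrays and 4.91 to 5.15 over the 6 supernatant arrays.

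**Figure D2:**
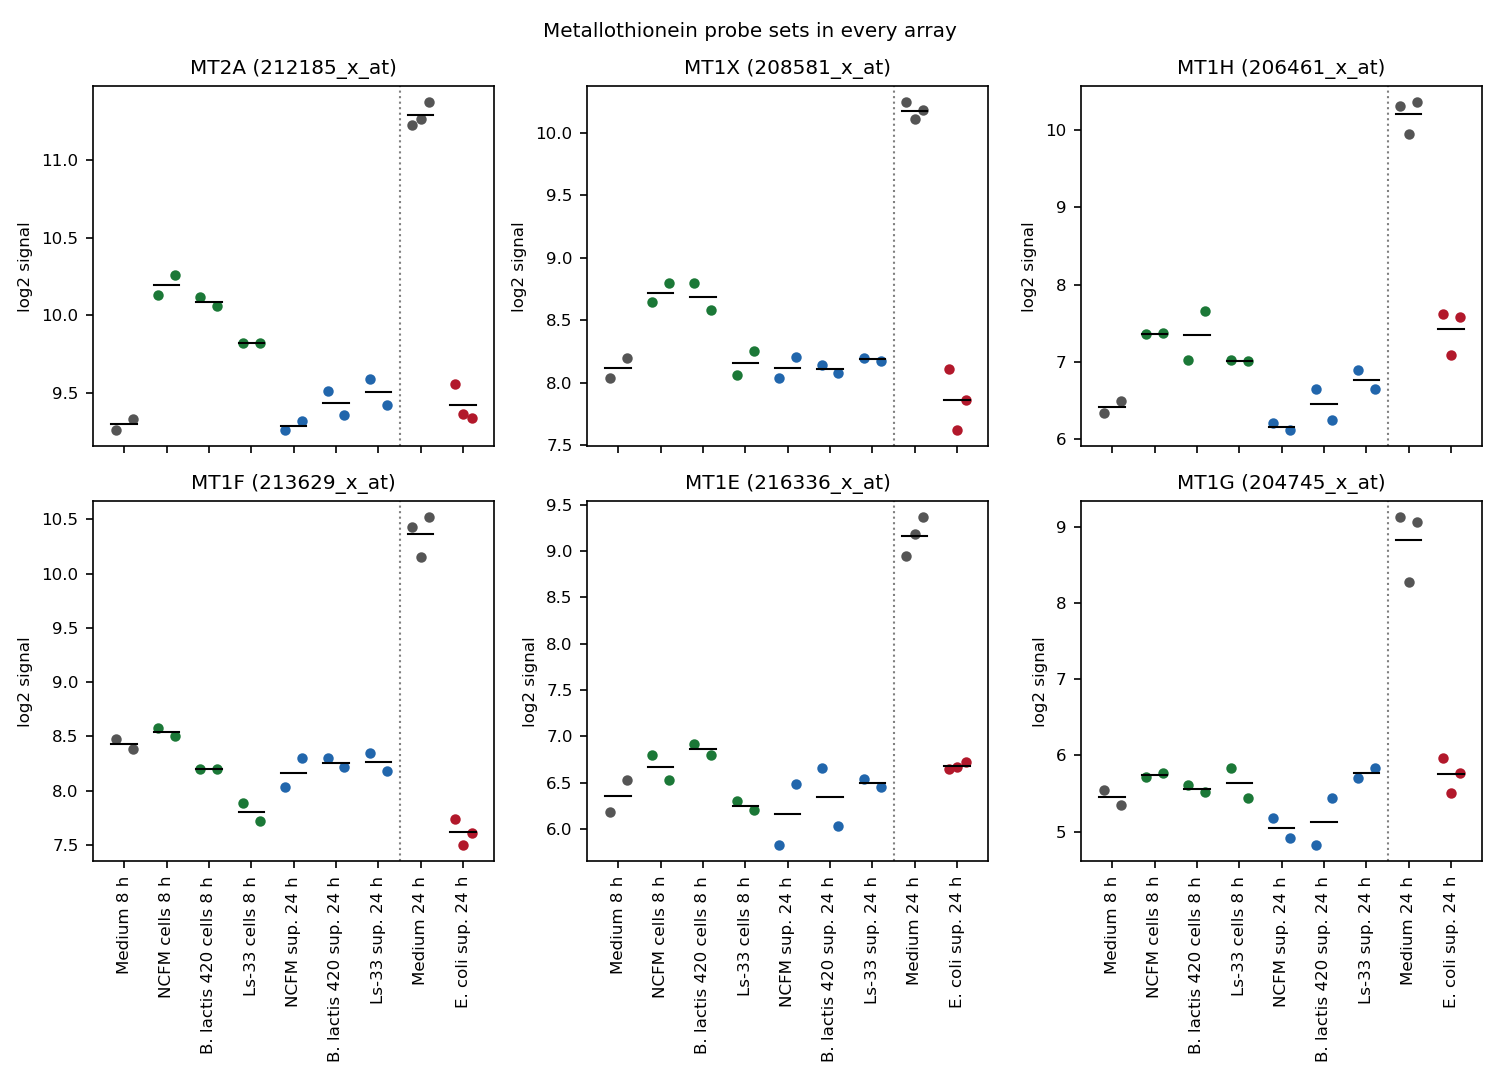
Log2 signal (vertical axis) of 6 metallothionein probe sets in each of the 20 arrays (points), with the group mean as a bar; the dotted line separates the probiotic set from the E. coli set, and the axes do not start at 0. With 24 h medium MT2A sits between 11.23 and 11.37, and with E. coli supernatant between 9.34 and 9.56. Among the co-cultures MT2A and MT1H lie above 8 h medium, and MT1F with Ls-33 lies below it.

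With live probiotic bacteria the metallothioneins were split. MT2A read 9.26 and 9.33 in 8 h medium, 10.13 and 10.26 with NCFM, 10.12 and 10.06 with B. lactis 420 and 9.83 and 9.82 with Ls-33, rising by 0.90, 0.79 and 0.52 on the log2 scale (SE 0.076, adjusted p = 2.27e-08, 1.22e-07 and 1.83e-05). MT1H read 6.34 and 6.50 in medium, 7.36 and 7.37 with NCFM, 7.03 and 7.66 with B. lactis 420 and 7.03 and 7.01 with Ls-33, rising by 0.95, 0.93 and 0.60 (SE 0.17, adjusted p = 2.86e-04, 3.58e-04 and 0.0102). All co-culture arrays of MT2A and MT1H were above both medium arrays. The MT1H call with Ls-33 was lost without Ls-33 array 1 (adjusted p = 0.0541) and without medium array 1 (0.0796). MT1X read 8.04 and 8.20 in medium, 8.64 and 8.80 in the NCFM arrays and 8.80 and 8.58 in those of B. lactis 420, where it rose by 0.60 and 0.57 (SE 0.10, adjusted p = 1.54e-04 and 2.71e-04), but 8.06 and 8.25 with Ls-33, a change of 0.04 that was not called. Among the co-cultures, MT1X overlapped with medium in the Ls-33 arrays only.

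MT1F was the only tested metallothionein called lower in a co-culture. It read 8.47 and 8.38 in 8 h medium, 8.58 and 8.50 with NCFM, 8.20 and 8.20 with B. lactis 420 and 7.88 and 7.71 with Ls-33. It was not called with NCFM (0.11) or B. lactis 420 (-0.23) and fell with Ls-33 by 0.63 (SE 0.10, adjusted p = 7.56e-05), with both Ls-33 arrays below both medium arrays. MT1E read 6.18 and 6.52 in medium, 6.80 and 6.53 with NCFM, 6.92 and 6.80 with B. lactis 420 and 6.30 and 6.20 with Ls-33, and its changes of 0.31, 0.51 and -0.10 were not called. So 3 of 5 tested metallothioneins were higher with NCFM, 3 with B. lactis 420, and 2 higher and 1 lower with Ls-33, with family medians of 0.60, 0.57 and 0.04. Of all genes tested, 16.8%, 18.3% and 19.4% were higher in these comparisons, and 19.3% lower with Ls-33.

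After 24 h with probiotic supernatants none of the 5 tested metallothioneins was called. MT2A read 9.26 and 9.32 with NCFM supernatant, 9.52 and 9.36 with that of B. lactis 420 and 9.59 and 9.42 with that of Ls-33. MT1H read 6.21 and 6.12, 6.65 and 6.25, and 6.89 and 6.65 in the same order. Log2 changes over the 5 genes and 3 supernatants lay between -0.27 for MT1F with NCFM supernatant and 0.35 for MT1H with Ls-33 supernatant. Of these values, the MT2A change of 0.21 with Ls-33 supernatant was called under the stricter filter at the 60th percentile (adjusted p = 0.0481), and MT1F with NCFM supernatant without its array 2 (-0.40, adjusted p = 0.0464).

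The media of the 2 sets did not read alike, and array set, RNA input and time cannot be told apart between them, so no test was made. MT2A averaged 9.30 ± 0.051 (SD, n = 2) in 8 h medium and 11.29 ± 0.075 (SD, n = 3) in 24 h medium, and MT1H 6.42 ± 0.11 and 10.20 ± 0.23. The E. coli supernatant arrays of MT2A, 9.34 to 9.56, lay near the 9.26 to 9.59 of 8 h medium and the probiotic supernatants in the other set. For the 5 tested metallothioneins the fall with E. coli supernatant is therefore a difference from a medium group whose mean signal was the highest of the 9 groups as deposited, and whether the sets were normalized jointly is not known.

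Metallothionein probe sets need caution, because 9 of the 11 carry the suffix _x_at, which marks probes that can also bind other transcripts, and metallothionein genes are near-identical in sequence. Every tested gene of the family (MT1E, MT1F, MT1H, MT1X, MT2A) rests on such a probe set, so signals cannot be assigned to single genes with certainty, and the 5 falls with E. coli supernatant are not 5 separate measurements. Tested one by one, 10 of 10 metallothionein probe sets were lower with E. coli supernatant, 9 of them _x_at, beside 25.1% of all 24655 probe sets tested in that fit (32.0% were higher). The other was MT1M 217546_at, which read 2.40, 3.82 and 3.19 in 24 h medium and 2.10, 2.14 and 2.26 with supernatant. MT1M was under the floor for genes and passed the lower floor of that fit, 2.46, only through its medium arrays, so its call there adds no support. For MT1G the probe sets differed: 210472_at, without the suffix, read 1.67 to 2.53 in all 20 arrays and was not tested, whereas 204745_x_at read 9.12, 8.28 and 9.07 in 24 h medium and 5.97, 5.51 and 5.78 with supernatant (-3.07, SE 0.20, adjusted p = 4.78e-08).

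Among the co-cultures, 4 of 9 tested metallothionein probe sets were higher with NCFM, 4 with B. lactis 420, and 3 higher and 2 lower with Ls-33. Over all probe sets tested, 13.1%, 14.4% and 15.5% were higher in the same order, and 15.0% lower with Ls-33. Probe sets of 1 gene diverged in places. The other MT1X probe set, 204326_x_at, was higher with NCFM and B. lactis 420 (0.93 and 0.90) and, unlike the first, with the supernatants of B. lactis 420 (0.35, adjusted p = 0.0476) and Ls-33 (0.51, adjusted p = 0.00452). MT1E 212859_x_at was higher with Ls-33 cells (0.79, adjusted p = 0.0270), where 216336_x_at changed by -0.10. Both MT1F probe sets were lower with Ls-33 cells, 217165_x_at by 0.43.

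SLC30A1, the plasma membrane zinc exporter and an MTF1 target like the metallothioneins, was lower with all 3 live strains and with E. coli supernatant. Its probe set 212907_at read 11.16 and 11.24 in 8 h medium, 10.42 and 10.19 with NCFM, 10.28 and 10.30 with B. lactis 420 and 10.43 and 10.40 with Ls-33, falling by 0.90, 0.91 and 0.79 on the log2 scale (SE 0.063, adjusted p = 1.65e-09, 1.14e-09 and 6.32e-09). It read 11.03, 10.97 and 11.07 in 24 h medium and 10.13, 10.02 and 10.17 with E. coli supernatant (-0.92, SE 0.062, adjusted p = 1.25e-07). No treated array reached its medium arrays in these comparisons. With probiotic supernatants it stayed between 11.23 and 11.34 and was not called. So with live bacteria SLC30A1 fell while MT2A and MT1H rose, and with E. coli supernatant all of them fell. Another SLC30A1 probe set, 228181_at, was lower with the 3 live strains by 1.09, 1.43 and 1.08, higher with Ls-33 supernatant (0.48), and not called with E. coli supernatant (0.23).

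Of the other exporters, SLC30A5, which loads zinc into the secretory pathway for enzymes such as alkaline phosphatase, was lower with E. coli supernatant. It read 9.23, 9.37 and 9.30 in 24 h medium and 8.38, 8.17 and 8.30 with supernatant (-1.01, SE 0.086, adjusted p = 8.03e-07), with no overlap. In 8 h medium it read 9.63 and 9.57, against 9.26 and 9.23 with NCFM (-0.35), 9.16 and 9.26 with B. lactis 420 (-0.39) and 9.42 and 9.38 with Ls-33 (-0.20), and all 3 were called. These calls were lost when the cross-hybridising probe set with the higher mean stood for the gene, with changes of -0.08, -0.06 and -0.01. The Ls-33 call was also lost without any 1 array of its groups (adjusted p from 0.0626 to 0.176).

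SLC30A2, which fills secretory and lysosomal vesicles and supplies zinc to milk, read 3.51 and 3.50 in 8 h medium and 2.63 and 2.72 with Ls-33 cells (-0.83, SE 0.16, adjusted p = 4.43e-04). With NCFM (3.03 and 3.19) and B. lactis 420 (3.23 and 3.25) it was not called. In the E. coli set it went from 4.37, 4.18 and 4.28 to 3.22, 3.14 and 3.39 (-1.03, SE 0.14, adjusted p = 4.04e-05). All these signals are low, and those with Ls-33 cells lie under the floor of 2.74. SLC30A9, the mitochondrial zinc exporter, was lower with NCFM (-0.25), Ls-33 (-0.24) and E. coli supernatant (-0.44). Its other probe set, 229500_at, lay the other way, averaging 6.40 in 8 h medium, 6.66 with NCFM and 6.73 with Ls-33 cells. In the E. coli set 229500_at averaged 5.49 in medium and 5.88 with supernatant. SLC30A6, the partner of SLC30A5, was lower with E. coli supernatant (-0.40), a call lost without supernatant array 2 (-0.31, adjusted p = 0.0573). SLC30A4, an exporter into vesicles, was higher with E. coli supernatant (0.71, SE 0.14, adjusted p = 8.92e-04). SLC30A7, another exporter of the secretory pathway, was higher with Ls-33 cells (0.33) and Ls-33 supernatant (0.45). The first of these was lost without Ls-33 array 2 (adjusted p = 0.326) or medium array 1 (0.225), and the second without supernatant array 2 (0.142) or medium array 1 (0.128).

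The apical importer SLC39A4 took the largest called change of the probe sets that stand for the transporters in each co-culture. It read 9.57 and 9.55 in 8 h medium, 8.27 and 7.89 with NCFM, 8.11 and 7.96 with B. lactis 420 and 7.99 and 8.21 with Ls-33. The log2 changes were -1.48, -1.52 and -1.46 (SE 0.11), or 2.79-fold, 2.87-fold and 2.74-fold lower, with adjusted p = 6.14e-09, 4.02e-09 and 5.35e-09. In the E. coli set it read 10.41, 10.48 and 10.39 in medium and 8.99, 9.01 and 9.02 with supernatant, 2.67-fold lower (-1.42, SE 0.065, adjusted p = 5.51e-09). Every treated array of these 4 groups was more than 1 log2 unit under its medium arrays. With probiotic supernatants it read 9.19 to 9.50 and was not called, although the change of -0.33 with Ls-33 supernatant passed under 3 alternative settings (adjusted p = 0.0426 with the stricter filter, 0.0469 after quantile normalization and 0.00659 with only these groups in the fit).

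SLC39A5, the importer of the basolateral membrane of enterocytes, was lower with every live strain. It read 8.32 and 8.33 in 8 h medium, 7.77 and 7.60 with NCFM, 7.53 and 7.56 with B. lactis 420 and 7.32 and 7.19 with Ls-33, falling by 0.63, 0.77 and 1.07 (SE 0.096, adjusted p = 4.02e-05, 3.60e-06 and 3.67e-08). In the E. coli set it read 7.002, 7.299 and 7.400 in medium and 6.41, 6.56 and 6.45 with supernatant (-0.76, SE 0.13, adjusted p = 3.07e-04). The groups did not overlap. SLC39A14, which carries zinc, iron and manganese, read 12.03 and 12.10 in 8 h medium and 11.45 to 11.61 over the 6 co-culture arrays, with changes of -0.55, -0.54 and -0.57 (SE 0.051, adjusted p = 9.46e-08, 1.16e-07 and 4.09e-08). It fell by 0.49 with E. coli supernatant (adjusted p = 1.68e-06). Its probe set 1555434_a_at gave larger changes, -2.28, -1.59 and -1.69 in the co-cultures and -1.02 with E. coli supernatant.

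**Figure D3:**
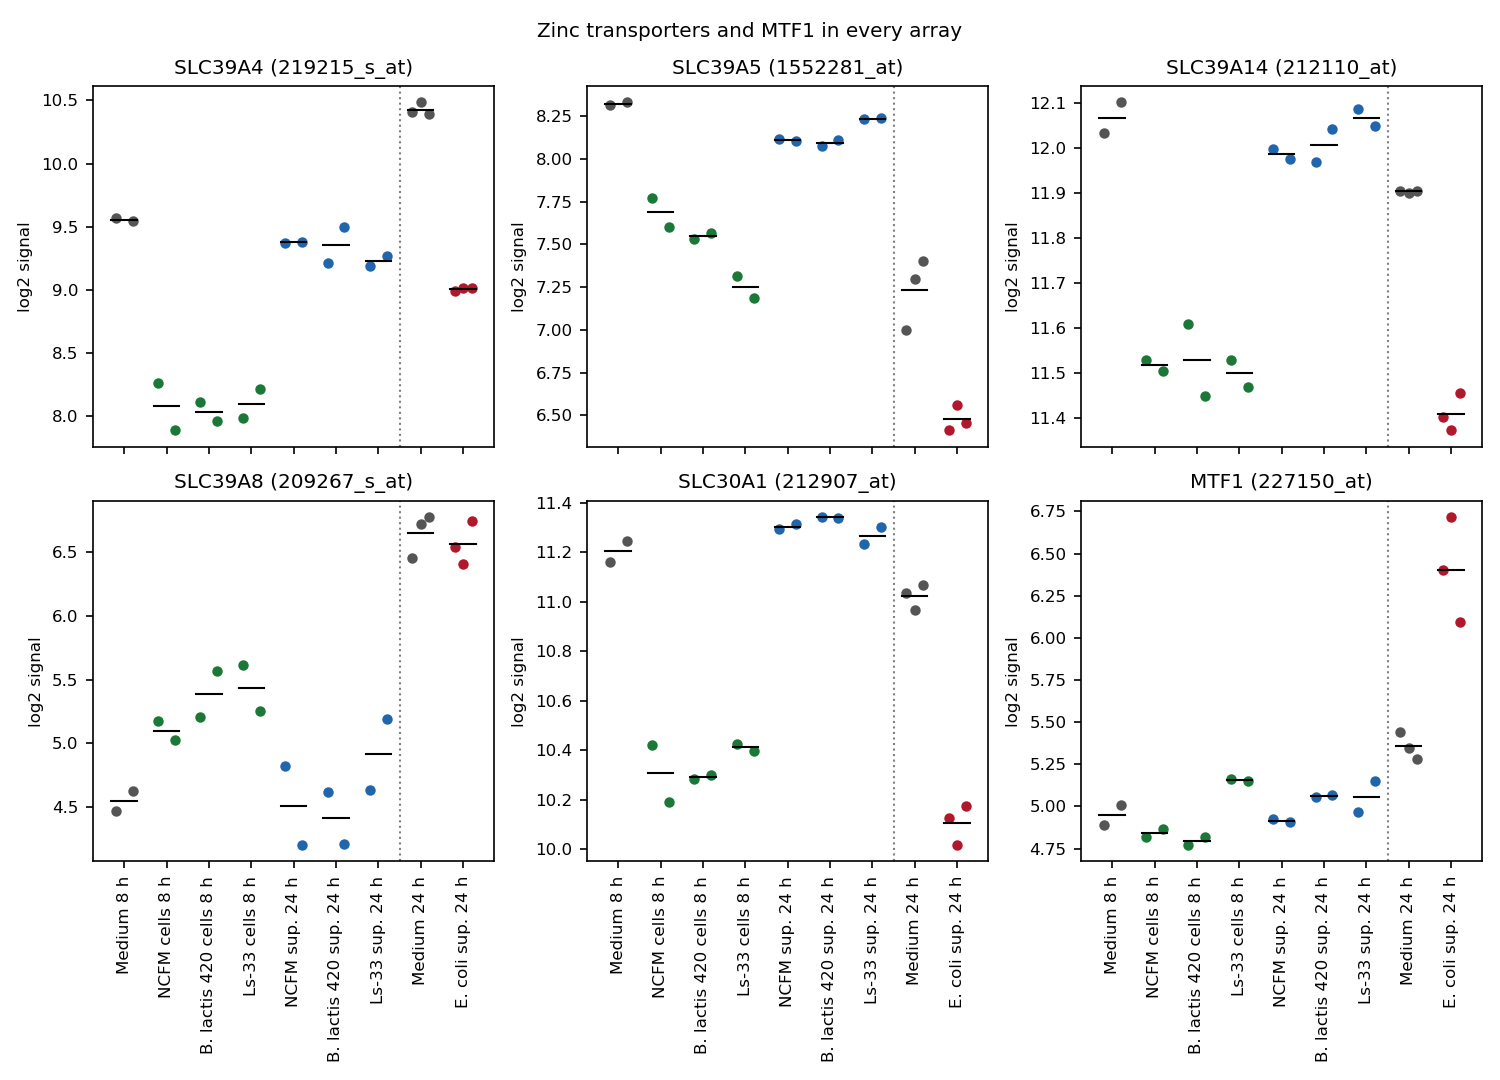
Log2 signal (vertical axis) of 5 zinc transporters and MTF1 in each of the 20 arrays (points) with group means as bars; the dotted line separates the array sets, and the axes do not start at 0. SLC39A4 lies at 7.89 to 8.27 in the co-cultures against 9.55 and 9.57 in 8 h medium. SLC30A1 is also lower in the co-cultures than in 8 h medium, and MTF1 stands out with E. coli supernatant at 6.09 to 6.72.

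SLC39A2, an importer of the plasma membrane, was tested in the E. coli set only. It read 5.28, 4.83 and 4.60 in 24 h medium and 2.11, 2.07 and 2.18 with supernatant (-2.78, SE 0.17, adjusted p = 5.56e-08), so the supernatant arrays lie under the floor of 2.78 and the gene passed the filter through its medium arrays. In the probiotic set it read 2.16 and 2.80 in medium, 1.69 to 2.27 in the co-cultures and 2.81 to 3.31 with supernatants, which overlaps the floor of 2.74.

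SLC39A11, another gene of the importer family, read 7.71, 7.45 and 7.42 in 24 h medium and 5.99, 5.75 and 5.74 with E. coli supernatant, 3.24-fold lower (-1.70, SE 0.13, adjusted p = 4.33e-07). With B. lactis 420 cells it read 7.03 and 7.47 against 7.60 and 7.71 in 8 h medium (-0.40), a call lost without B. lactis 420 array 1 (-0.18, adjusted p = 0.380), medium array 1 (0.0501) or medium array 2 (0.134). SLC39A7, which releases zinc from the endoplasmic reticulum and Golgi, was the only member called with all 3 probiotic supernatants. It read 7.08 and 7.23 in 8 h medium, 6.45 and 6.76 with NCFM supernatant, 6.50 and 6.74 with that of B. lactis 420 and 6.81 and 6.47 with that of Ls-33, with changes of -0.55, -0.53 and -0.52 (SE 0.16, adjusted p = 0.0307, 0.0289 and 0.0326). Each of these calls was lost without medium array 1 (adjusted p from 0.0637 to 0.0718) or medium array 2 (0.178 to 0.190). They were also lost without NCFM supernatant array 1 (-0.40, adjusted p = 0.279), either array of B. lactis 420 supernatant (0.190 and 0.0519) or Ls-33 supernatant array 2 (-0.35, adjusted p = 0.323), and all 3 in a fit without a trend in eBayes (0.0646 to 0.0725). With E. coli supernatant SLC39A7 went from 8.00, 8.18 and 8.23 to 7.30, 6.89 and 6.91 (-1.10, SE 0.13, adjusted p = 1.15e-05), with no overlap.

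SLC39A8, which brings zinc and manganese into the cell, was the only importer besides SLC39A6 called higher in a co-culture. It read 4.47 and 4.63 in 8 h medium, 5.17 and 5.03 with NCFM, 5.20 and 5.57 with B. lactis 420 and 5.62 and 5.25 with Ls-33. The rises with B. lactis 420 (0.84, adjusted p = 0.00873) and Ls-33 (0.89, adjusted p = 0.00520) were called and the change with NCFM (0.55) was not. These values are of 209267_s_at, which stood for the gene among its 6 probe sets. Tested one by one, 5 probe sets of members were higher with B. lactis 420 cells, 4 of them of metallothioneins. So no other SLC39A8 probe set was called higher there. The B. lactis 420 call was lost without its array 2 (0.65, adjusted p = 0.0984) or medium array 1 (0.76, 0.0636), and the Ls-33 call without its array 1 (0.70, 0.0750). SLC39A10 was lower with B. lactis 420 supernatant (-0.34, adjusted p = 0.00241) and higher with E. coli supernatant (0.72, SE 0.096, adjusted p = 3.60e-05). SLC39A13, an importer whose loss causes a connective tissue disorder, was lower with E. coli supernatant (-0.74, adjusted p = 3.78e-04). Its other probe set, 1552295_a_at, did not fall, averaging 4.27 in 24 h medium and 4.40 with supernatant, with overlapping arrays.

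Several smaller calls rested on single arrays in the probiotic set. Those of SLC30A9 with NCFM and Ls-33 cells and of SLC39A10 with B. lactis 420 supernatant held without each array in turn. SLC39A9, of the secretory pathway, was called lower with NCFM (-0.18), B. lactis 420 (-0.20) and Ls-33 cells (-0.28), with Ls-33 supernatant (-0.21) and with E. coli supernatant (-0.36). The NCFM call was lost without either NCFM array (adjusted p = 0.0529 and 0.203) or medium array 2 (0.320), the B. lactis 420 call without its array 2 (0.169) or medium array 2 (0.225), and the Ls-33 call without medium array 2 (0.0517). The Ls-33 supernatant call was lost without either supernatant array (0.0855 and 0.238) or medium array 2 (0.284). With E. coli supernatant another SLC39A9 probe set, 217859_s_at, was called higher (1.05), as was SLC30A9 229500_at (0.39), and no other member had probe sets called in opposite directions in 1 comparison. SLC39A6, a plasma membrane importer, was called higher with Ls-33 cells (0.23), a call lost without either Ls-33 array (0.0679 and 0.133) or medium array 2 (0.198). SLC39A7 with B. lactis 420 cells (-0.45, adjusted p = 0.0343) was lost without their array 2 (0.296), medium array 1 (0.0606) or medium array 2 (0.184). With NCFM cells 3 further probe sets of SLC39A6 were lower (by 0.93, 0.72 and 0.44), where its main one was not called, and so was SLC39A9 217859_s_at (by 0.96). Over all members 16 of 53 tested probe sets were lower with NCFM cells, and 12 with each of the other strains, where the shares over all probe sets tested were 18.0% for NCFM, 14.2% for B. lactis 420 and 15.0% for Ls-33 cells. The beta-actin difference was 1.25 and 1.54 with NCFM, 1.08 and 1.27 with B. lactis 420 and 1.23 and 1.26 with Ls-33 cells, and its part in these counts was not tested. SLC30A3, SLC39A1 and SLC39A3 were tested and not called in any comparison with medium.

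**Figure D4:**
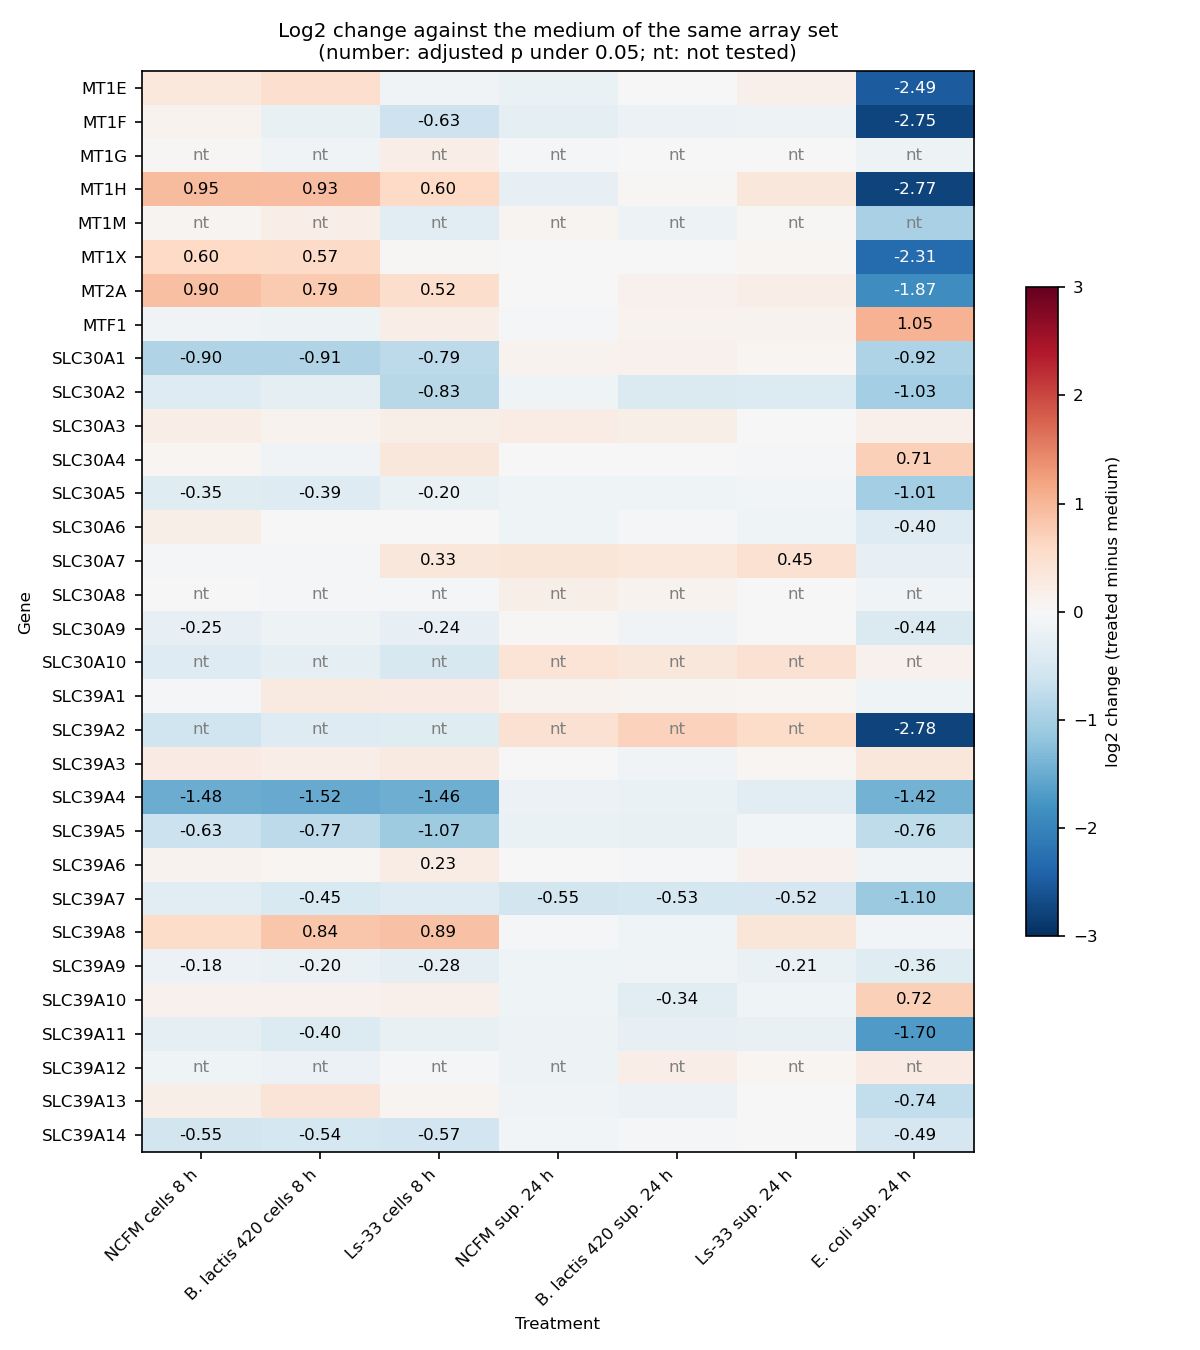
Log2 change of each of the 32 members (rows) in the 7 treatments (columns) against the medium of the same array set, from blue (lower) to red (higher), with the value printed where it was called and nt where the gene was not tested. The E. coli column is lower for all 5 tested metallothioneins, from -2.77 for MT1H to -1.87 for MT2A, and the supernatant columns of the probiotic set hold 6 called values.

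Counted over the 26 tested members, 3 (11.5%) were higher and 7 (26.9%) lower with NCFM cells, where 16.8% of all genes tested were higher and 18.4% lower. With B. lactis 420 cells 4 (15.4%) were higher and 8 (30.8%) lower, beside 18.3% and 16.9% of all genes. With Ls-33 cells 5 (19.2%) were higher and 9 (34.6%) lower, beside 19.4% and 19.3%. The share of members that rose was near or under that of all genes, and the share that fell was above it. With NCFM supernatant limma called 0 higher and 1 (3.85%) lower, beside 5.28% and 5.98% of all genes. There 4 of the 26 members had an unadjusted p under 0.05, where 25.6% of all genes did. With that of B. lactis 420 limma called 0 higher and 2 (7.69%) lower, beside 5.98% and 9.20%. Here 6 of the 26 members had an unadjusted p under 0.05, where 29.8% of all genes did. With that of Ls-33 1 (3.85%) was higher and 2 (7.69%) lower, beside 8.48% and 8.14%. The supernatant shares were near or under those of all genes. With E. coli supernatant 3 of 27 (11.1%) were higher and 18 (66.7%) lower, beside the 36.3% and 27.8% given above. The 18 include SLC39A2, which passed the filter only through its medium arrays, so its call adds no support. They also include the metallothioneins, whose cross-hybridising probe sets are not separate measurements. Called the same way with all 3 live strains were MT1H and MT2A, higher, and SLC30A1, SLC30A5, SLC39A4, SLC39A5, SLC39A9 and SLC39A14, lower. The 3 comparisons share their medium arrays. By the probe set that stands for each, all 8 of these genes were lower with E. coli supernatant. How many of all genes moved in these ways was not counted, so these numbers cannot be read as a trait of the members. Another SLC39A9 probe set, 217859_s_at, was called higher there, and SLC30A1 228181_at was not called.

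**Figure D5:**
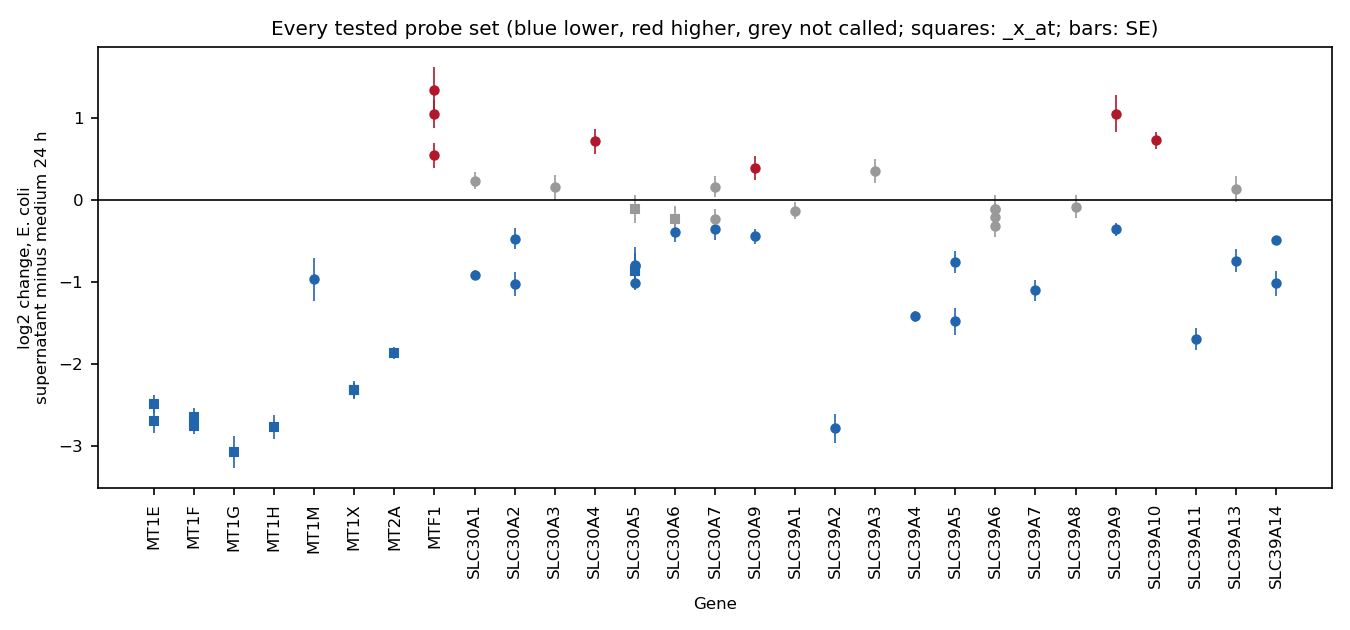
Log2 change with E. coli supernatant (vertical axis, supernatant minus 24 h medium, bars are standard errors) of every tested probe set of the members (horizontal axis), blue where called lower, red where called higher and grey where not called, with cross-hybridising _x_at probe sets as squares. All 10 metallothionein probe sets lie below 0 and all 3 MTF1 probe sets above it. Of the 10, 9 are _x_at and not separate measurements, and the other, of MT1M, passed the floor only through its medium arrays.

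Between the live strains, 3 of 5 tested metallothioneins differed, each with its lowest mean in Ls-33 cells. Their probe sets cross-hybridise, so these are not separate measurements. MT1F was graded rather than split, with means of 7.80 for Ls-33, 8.20 for B. lactis 420 and 8.54 for NCFM cells. The other probe sets of MT1F and MT1X were also lowest in Ls-33 cells. In contrast, MT1E 212859_x_at had its highest co-culture mean there (5.19), and MT1G 204745_x_at a middle one (5.64). A moderated F-test among the 3 co-cultures called 5 members, MT1F (adjusted p = 2.26e-04), MT1X (0.00114), MT2A (0.00574), SLC39A5 (0.0110) and SLC30A2 (0.0494), where 13.7% of all genes were called. MT1E (0.115) and MT1H (0.271) were not called. Ls-33 cells were lower than NCFM cells in MT1F (-0.74, SE 0.10, adjusted p = 5.58e-05), MT1X (-0.57, adjusted p = 8.76e-04), MT2A (-0.37, adjusted p = 0.00213) and SLC39A5 (-0.44, adjusted p = 0.00383), 15.4% of the tested members, a share near the 14.7% of all genes called in either direction. Ls-33 cells were lower than B. lactis 420 cells in MT1X (-0.53), MT1F (-0.40), MT2A (-0.27) and SLC30A2 (-0.56), 15.4% beside 5.58%. Between B. lactis 420 and NCFM cells limma called 0 members, beside 3.03% of all genes. An unadjusted p under 0.05 was found in 2 of the 26 members, where 17.3% of all genes had one.

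Which of these strain differences rested on single arrays was checked by leaving out each in turn. MT1F and MT1X kept their call in the F-test in every such fit. MT2A missed the threshold without Ls-33 array 1 (adjusted p = 0.0558) or array 2 (0.0551), and SLC39A5 without Ls-33 array 2 (0.122; 0.0573 against NCFM alone). SLC30A2 was lost without NCFM array 2, either B. lactis 420 array or either Ls-33 array (adjusted p from 0.0666 to 0.251). None of the 4 differences between Ls-33 and B. lactis 420 cells held in every such fit, with 0 or 1 members called without any 1 of the 4 arrays. Among the supernatants the F-test called 0 members, beside 0.0337% of all genes, and 3 had an unadjusted p under 0.05, where 8.02% of all genes did. For MT1F, MT2A, MT1X and SLC39A5 the strain difference itself depended on whether live cells or supernatant was given (limma interaction, adjusted p = 0.00540, 0.00775, 0.0200 and 0.0400), beside 4.40% of all genes, and time differs between these formats. In a fit without a trend in eBayes none of the 4 was called (0.0570 to 0.0975). The MT1F call held without each array in turn. That of MT2A was lost without Ls-33 supernatant array 1 (0.0599), that of MT1X without Ls-33 co-culture array 1 or either Ls-33 supernatant array (0.0746 to 0.133), and that of SLC39A5 without any single array other than NCFM co-culture array 2 (0.0530 to 0.160).

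Genes of neighbouring pathways were counted from lists, chosen like the members with earlier results of these data known. Of 24 genes for zinc and copper handling outside the members, 21 were tested in the probiotic set, with 5 higher and 5 lower with NCFM, 4 and 4 with B. lactis 420 and 2 and 3 with Ls-33 cells. The shares of all genes to read these and the next lists against are 16.8% to 19.4% higher and 16.9% to 19.3% lower in the co-cultures, 5.28% to 8.48% higher and 5.98% to 9.20% lower with probiotic supernatants, and 36.3% higher and 27.8% lower with E. coli supernatant. SLC11A2, the apical importer of iron and other divalent metals, changed by -1.79, -1.59 and -1.76, and HEPH, a copper-dependent ferroxidase, by -0.77 with each strain, whereas STEAP3, a metal reductase, rose by 1.28, 1.04 and 0.70. With the supernatants of NCFM, B. lactis 420 and Ls-33, 1, 2 and 2 genes were higher and 2 were lower with each. In the E. coli set 4 of 20 were higher and 11 lower, among them SLC11A2 (-1.23), HEPH (-0.99) and the copper pump ATP7A (-1.31).

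Of 24 zinc-dependent enzymes of the enterocyte, 12 were tested. With NCFM, B. lactis 420 and Ls-33 cells 2, 4 and 4 were higher and 5 lower with each, and with E. coli supernatant 5 were higher and 3 lower. The metalloprotease MEP1A changed by -1.24, -1.45, -1.50 and -1.74 in these 4 comparisons, and the alkaline phosphatase ALPP by -0.71, -0.83, -0.90 and -1.25. The aminopeptidase ANPEP fell by 2.00 with E. coli supernatant. With probiotic supernatants 1, 1 and 2 were higher and 2, 1 and 2 lower. Of 18 genes for metal and oxidative stress, 15 were tested, and 7, 7 and 8 were higher and 3, 1 and 2 lower in the co-cultures, 5, 5 and 7 higher and 0 lower with the supernatants, and 12 higher and 1 lower with E. coli supernatant. GCLM, the regulatory subunit of the enzyme that starts glutathione synthesis, rose by 1.13, 1.00 and 1.54 in the co-cultures and by 2.09 with E. coli supernatant, and the cystine transporter SLC7A11 by 2.15 with the latter. With E. coli supernatant the median log2 change was 0.75 over this list, -2.49 over the metallothioneins and 0.048 over all genes tested.

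The markers of the enterocyte-like state moved with the same treatments. Their mean log2 signal over 14 genes was 10.01 to 10.09 in 8 h medium, 9.29 to 9.57 in the co-cultures and 10.11 to 10.22 with probiotic supernatants, and 9.71 in the 24 h medium arrays against 9.14 to 9.24 with E. coli supernatant. The lists of other cell types shifted with E. coli supernatant as well, without overlap of the arrays: 6 fibroblast genes averaged 6.95 to 7.03 in medium and 6.51 to 6.67 with supernatant, 5 leukocyte genes 4.43 to 4.65 and 4.76 to 4.87, 3 endothelial genes 4.29 to 4.44 and 3.87 to 4.10, and 4 goblet and Paneth cell genes 2.27 to 2.52 and 2.14 to 2.24. In the co-cultures the leukocyte list was lower with NCFM (3.54 to 3.62, against 3.81 to 4.05 in 8 h medium), the fibroblast list lower with B. lactis 420 and Ls-33 (6.41 to 6.55, against 6.59 to 6.66), and the endothelial list lower with each strain (4.31 to 4.49, against 4.51 to 4.54). The same 3′ minus 5′ difference for GAPDH was 0.117 to 0.223 with 24 h medium and 0.246 to 0.337 with E. coli supernatant, and that of beta-actin was higher in every co-culture array than in 8 h medium, as given above. The part of these shifts in the falls of SLC39A4, SLC39A5, SLC30A1 and the metallothioneins was not tested.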

How the data were processed

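RNA of Caco-2 cells was hybridised to 20 HG-U133 Plus 2.0 arrays, and whether the 2 arrays of a probiotic group come from separate cultures is not given in the sources used here. The values deposited by the authors are log2 probe-set summaries made with RMA per the submitters' processing notes, which give no version here. Whether the sets were normalized jointly is not given in the sources used here. The number of arrays limits the precision. Of 54675 probe sets, 41091 carried 1 symbol, 1801 several, 11721 none and 62 were controls. Symbols were updated through Entrez identifiers to RefSeq (GRCh38.p14). For each gene the brightest probe set on average was used, passing over _x_at probe sets where others existed, and tested when its mean reached the 40th percentile. The members have 71 probe sets, 13 of them _x_at, and 20 members have more than 1.

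Fits used limma 3.58.1 in R 4.3.3 (lmFit, eBayes with a trend), over the 14 probiotic arrays or the 6 E. coli arrays, with Benjamini-Hochberg adjustment over 11865 genes. Fits were tested on simulated data. Values in every array are given for members called with a log2 change of at least 1, and for MTF1 and SLC30A1; from other lists up to 3 called genes per comparison were eligible for naming. SLC39A8, SLC39A14, MT1G and MT1M are shown by array outside that rule and were chosen after their values were seen. The members and lists were chosen with earlier results of these data known. Alternatives were another filter, no trend, quantile normalization, other probe sets, fewer or more groups in the fit, a replicate block and leaving out each array. Same-numbered arrays did not deviate together (r from -0.071 to 0.055 over 42 pairs and -0.079 to 0.030 over 3), so the numbers do not pair them. No 2 arrays held identical values.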

Additional observations from a re-analysis of the deposited data

Results flagged for a closer look

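Strain differences that depended on live cells or supernatant were called for 4 members by limma's interaction test, in which time (8 h for cells, 24 h for supernatant) differs with the format. For MT1F (adjusted p = 0.00540) the co-culture mean minus the supernatant mean was 0.38 for NCFM, -0.06 for B. lactis 420 and -0.47 for Ls-33 on the log2 scale. For MT2A (0.00775) it was 0.91, 0.65 and 0.32, and for MT1X (0.0200) 0.60, 0.58 and -0.03. For SLC39A5 (0.0400) it was -0.42, -0.54 and -0.98. Each group has 2 arrays. Of the 4, MT1F kept its call without each array in turn, and 0 were called without a trend in eBayes.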

How the results depend on the processing

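For the probe set that stands for each gene, and when the brightest one with _x_at included stood for it, no called member reversed its direction. With every probe set on its own, SLC39A9 and SLC30A9 had another probe set called higher with E. coli supernatant (1.05 and 0.39). Of members called against medium, 8 of 10 with NCFM cells, 7 of 12 with B. lactis 420 cells, 8 of 14 with Ls-33 cells and 20 of 21 with E. coli supernatant were called under every alternative. For the supernatants these were 0 of 1 for NCFM, 1 of 2 for B. lactis 420 and 0 of 3 for Ls-33. NCFM supernatant had 0 calls without a trend, and 0 to 2 leaving out 1 array. B. lactis 420 supernatant had 1 without a trend, 1 after quantile normalization, 5 with every probe set on its own, and 1 leaving out any 1 array. Ls-33 supernatant had 5 with the filter at the 60th percentile, 1 without a trend, and 0 to 3 leaving out 1 array, with 0 without supernatant array 2. Ls-33 against NCFM cells gave 8 with every probe set on its own. Ls-33 against B. lactis 420 cells gave 1 without a filter, 1 without a trend, 2 with the replicate block, and 0 to 1 leaving out 1 array. B. lactis 420 against NCFM cells gave 1 after quantile normalization and 1 with every probe set on its own. The F-test among co-cultures gave 2 to 6 leaving out 1 array, 3 and 2 without Ls-33 array 1 or 2. The interaction gave 0 without a trend and 1 to 4 leaving out 1 array, and 3 with the replicate block. The block changed no other call except SLC30A2 in the F-test (adjusted p = 0.0603). The causes were not tested. Detection calls were not used here, so low signals such as SLC30A2 and SLC39A2 are bounded only by the floor. Quantile normalization moved the median of all genes by 0.050 at most.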
